A study of Mus musculus with 12 samples.

Results

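The guanylate-binding proteins described here are 8 mouse genes chosen by name, Gbp2, Gbp3, Gbp4, Gbp5, Gbp6, Gbp7, Gbp8 and Gbp9, out of 21878 genes in the count table. All 8 had enough counts to be tested, among 14330 tested genes, so none was lost to the filter on low counts. RNA sequencing of total RNA gave 12 libraries. Their labels name the mouse hepatoma line Hepa1-6, the tissue liver and a murine HCC (hepatocellular carcinoma) source. The 4 groups held 3 libraries each: untreated, mIFNalpha (mouse interferon alpha, written IFNa here), an antibody against PD-1 (antiPD1; PD-1 is an inhibitory receptor on T cells), and the combination of both. Dose, time and route were not used here, and all 4 groups share the one line.

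Guanylate-binding proteins are large GTPases of the dynamin superfamily that are among the genes most strongly induced by interferon gamma, and to a lesser degree by type I interferons such as IFNa. Inside a cell they gather on vacuoles that hold bacteria or parasites and on lipopolysaccharide, where they help to open the vacuole and to activate the caspases that drive pyroptosis. Interferon gamma signalling reaches promoters at GAS sites and through Irf1, while IFNa signalling acts mainly at ISRE sites.

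The genes lie in 2 clusters. Per GENCODE M21 on the mm10 build, Gbp5, Gbp7, Gbp3 and Gbp2 lie in this order on the forward strand of chromosome 3 within 144.0 kb, from chr3:142493978 to chr3:142638008. Gbp8, Gbp9, Gbp4 and Gbp6 lie on the reverse strand of chromosome 5 within 279.5 kb, from chr5:105014150 to chr5:105293698, and the annotated models of Gbp8, Gbp9 and Gbp4 overlap there. Promoter windows were looked up because all members moved together in the counts. RefSeq windows (GRCm38.p6, 250 bases before to 50 after the annotated start) were found for 4 of 8 members, Gbp2, Gbp3, Gbp5 and Gbp7. They are shown 5′ to 3′ on the forward strand, with matches to the ISRE core GAAANNGAAA or the GAS core TTCNNNGAA, searched on both strands, in capitals. The windows are chr3:142620413-142620712 for Gbp2, chr3:142559794-142560093 for Gbp3, chr3:142496684-142496983 for Gbp5 and chr3:142530086-142530385 for Gbp7.
Gbp2: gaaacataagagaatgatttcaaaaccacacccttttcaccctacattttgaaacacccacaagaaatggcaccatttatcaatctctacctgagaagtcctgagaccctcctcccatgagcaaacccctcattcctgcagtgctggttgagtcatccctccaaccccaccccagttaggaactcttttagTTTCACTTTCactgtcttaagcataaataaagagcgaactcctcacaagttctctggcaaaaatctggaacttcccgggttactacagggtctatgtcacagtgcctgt
Gbp3: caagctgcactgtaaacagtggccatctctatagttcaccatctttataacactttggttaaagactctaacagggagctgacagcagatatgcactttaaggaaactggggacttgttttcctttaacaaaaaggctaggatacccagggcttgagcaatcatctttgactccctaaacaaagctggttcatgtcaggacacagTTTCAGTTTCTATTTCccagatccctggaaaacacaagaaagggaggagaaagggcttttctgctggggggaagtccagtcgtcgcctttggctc
Gbp5: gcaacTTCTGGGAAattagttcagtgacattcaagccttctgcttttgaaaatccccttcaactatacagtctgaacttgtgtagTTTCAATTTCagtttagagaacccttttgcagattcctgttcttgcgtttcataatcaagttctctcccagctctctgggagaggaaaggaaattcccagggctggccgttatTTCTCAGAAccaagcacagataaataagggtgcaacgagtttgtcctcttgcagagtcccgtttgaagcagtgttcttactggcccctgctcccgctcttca
Gbp7: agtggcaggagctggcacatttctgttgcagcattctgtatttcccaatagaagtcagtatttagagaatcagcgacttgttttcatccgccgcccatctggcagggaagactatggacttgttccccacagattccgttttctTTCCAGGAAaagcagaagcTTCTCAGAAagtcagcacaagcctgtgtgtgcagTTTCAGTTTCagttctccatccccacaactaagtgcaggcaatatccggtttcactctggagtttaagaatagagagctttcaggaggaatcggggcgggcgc

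Each of these 4 windows held the ISRE core. Its first match began 59 bases before the start of Gbp2, 45 before that of Gbp3, 165 before that of Gbp5 and 53 before that of Gbp7. In Gbp3 a match beginning 45 bases and one beginning 39 bases before the start overlap, and a second annotated start of Gbp3 had a window without either motif. The GAS core was matched in 2 windows: at 245 and 52 bases before the start of Gbp5, and at 106 and 87 bases before that of Gbp7. Of 32851 RefSeq windows of the same 300-base length, 3.44% held the ISRE core, 8.3% the GAS core and 0.454% both. These matches describe letters in the sequence, and no binding was measured.

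**Figure D1:**
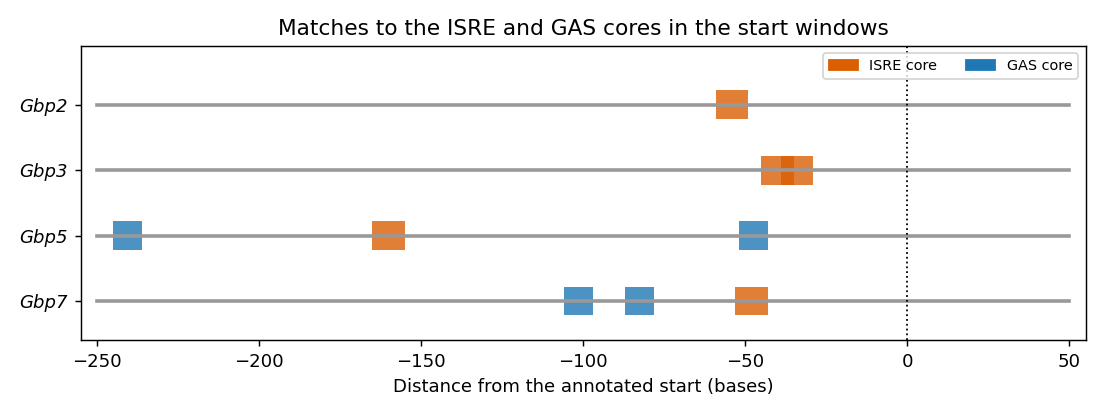
Positions of ISRE and GAS core matches in the RefSeq promoter windows, in bases from the annotated start on the horizontal axis, with 1 row per window. The windows of Gbp5 and Gbp7 each show 1 ISRE and 2 GAS matches, and those of Gbp2 and Gbp3 show ISRE matches only.

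Library totals ranged from 31.3 to 38.5 M (mega) counted reads, and 15678 to 16377 genes had at least 1 count. AntiPD1 replicate 3 and IFNa replicate 1 stood furthest from their own groups. No label ties a replicate to an animal or culture of its own, so p-values measure only the spread between these libraries. Although the label names a cell line, leukocyte transcripts were present in every library: 5 general leukocyte markers (Ptprc, Cd52, Coro1a, Laptm5 and Cd53) summed to 168 to 353 CPM (counts per M counted reads, scaled by TMM) in untreated and IFNa libraries and to 384 to 1103 in the 6 libraries given antiPD1. The hepatoma transcript Afp was abundant in all groups, at 10413 ± 696 CPM without treatment, 9748 ± 1768 after IFNa, 7019 ± 666 after antiPD1 and 6129 ± 687 after the combination (mean ± SD, n = 3, as throughout). In the comparisons in which the members rose, Afp fell, with log2 fold changes of -0.57 for antiPD1 (adjusted p = 0.0281 by edgeR) and -0.76 for the combination (adjusted p = 0.0159). Afp was 1 of 3 hepatoma markers tested, and 1 of these 3 was called lower in each comparison. Higher than untreated were 2 of 3 after antiPD1 and 1 of 3 after the combination.

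All 8 genes rose after antiPD1 and all 8 rose after the combination, by 2.37-fold to 4.99-fold and by 3.08-fold to 5.52-fold respectively. After IFNa alone none passed. With edgeR's quasi-likelihood test and Benjamini-Hochberg adjustment over 14330 genes, adjusted p-values were 0.0198 to 0.0368 for antiPD1 and 0.0111 to 0.044 for the combination. Over all tested genes, 9.76% rose and 5.08% fell after antiPD1, and 7.58% rose and 5% fell after the combination. In bulk RNA, more cells that express these genes and more RNA per cell cannot be told apart. The 2 comparisons share the 3 untreated libraries.

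Gbp2 and Gbp5 are members known to carry a lipid anchor at the C terminus. Gbp2 coats parasite vacuoles and binds lipopolysaccharide. Its CPM was 76.2, 88.5 and 167 in untreated, 81.7, 191 and 180.2 in IFNa, 262, 275 and 693 in antiPD1 and 286, 290.1 and 474 in combination libraries. Every antiPD1 and combination library was above every untreated and IFNa library, while the untreated and IFNa libraries overlapped. The log2 fold change of Gbp2 was 1.89 ± 0.47 (SE) for antiPD1 (adjusted p = 0.0291 by edgeR) and 1.66 ± 0.47 for the combination (adjusted p = 0.044). Gbp5, which is known to promote assembly of the Nlrp3 inflammasome, had 8.56, 6.74 and 15.8 in untreated, 10.1, 18.4 and 19.2 in IFNa, 31.2, 33.9 and 90.1 in antiPD1 and 43.0, 49.4 and 79.3 in combination libraries. The libraries given antiPD1 were all higher than the others, and Gbp5 had the largest fold change of the 8 in both comparisons. It was 2.32 ± 0.48 for antiPD1 (adjusted p = 0.0208) and 2.46 ± 0.49 for the combination (adjusted p = 0.0179), both by edgeR. Gbp8 after antiPD1 (2.12) and Gbp4 after the combination (2.14) lay within that SE.

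Gbp3 and Gbp7 are the other members on chromosome 3. Gbp7, which helps to protect mice against mycobacteria and other intracellular bacteria, had CPM of 25.6, 33.9 and 54.2 in untreated, 34.9, 61.2 and 45.3 in IFNa, 65.7, 77.0 and 127 in antiPD1 and 105, 103 and 142 in combination libraries. All libraries with antiPD1 exceeded all without it. This was the smallest rise of the 8 in both comparisons, 1.24 ± 0.32 for antiPD1 (adjusted p = 0.032 by edgeR) and 1.62 ± 0.33 for the combination (adjusted p = 0.0186). The values of Gbp9, 1.31 and 1.65, lay within that SE, so the order of these 2 genes is not resolved. Gbp3 had 17.1, 20.3 and 33.2 in untreated, 27.4, 39.7 and 42.6 in IFNa, 47.4, 60.3 and 131 in antiPD1 and 76.0, 76.9 and 106 in combination libraries. Its groups were separated in the same way, with log2 fold changes of 1.76 ± 0.38 (adjusted p = 0.0215) and 1.87 ± 0.38 (adjusted p = 0.0192) by edgeR.

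On chromosome 5, Gbp4 is known to dampen Irf7-driven interferon responses. Gbp4 had CPM of 13.0, 21.1 and 33.3 in untreated, 21.4, 35.8 and 33.8 in IFNa, 57.3, 65.9 and 118 in antiPD1 and 86.0, 81.5 and 129.6 in combination libraries. The lowest antiPD1 library lay above the highest untreated one, and the log2 fold changes were 1.84 ± 0.38 (adjusted p = 0.0207 by edgeR) and 2.14 ± 0.38 (adjusted p = 0.0151). Gbp6, named with Gbp7 in protection against bacteria, had 16.0, 24.5 and 38.6 in untreated, 16.6, 43.1 and 38.7 in IFNa, 49.4, 67.4 and 128 in antiPD1 and 80.1, 72.5 and 111 in combination libraries. It rose by 1.63 ± 0.45 after antiPD1 (adjusted p = 0.0368) and 1.74 ± 0.45 after the combination (adjusted p = 0.035) by edgeR. Of the 100-base stretches of its longest coding transcript 82.9% also occur in another gene, most often in Gm43302. Its value is thus uncertain: reads could be shared with such genes, and Gm43302 was not analysed here. Gbp8 is a less studied member and had 8.56, 6.87 and 13.3 in untreated, 7.33, 15.4 and 16.1 in IFNa, 16.3, 35.3 and 73.4 in antiPD1 and 31.2, 37.1 and 44.8 in combination libraries. Its rises were 2.12 ± 0.50 (adjusted p = 0.0252) and 1.98 ± 0.50 (adjusted p = 0.0326) by edgeR.

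Gbp9, the remaining gene of that cluster, had 15.3, 15.1 and 27.7 in untreated, 26.3, 31.9 and 31.3 in IFNa, 42.5, 38.2 and 63.7 in antiPD1 and 59.7, 53.8 and 69.4 in combination libraries. The groups with and without antiPD1 did not overlap, and the smallest SE of the 8 went with log2 fold changes of 1.31 ± 0.25 (adjusted p = 0.0198) and 1.65 ± 0.26 (adjusted p = 0.0111) by edgeR. For the other members the share of 100-base stretches also found in another gene was 10.2% for Gbp7, 3.81% for Gbp8 and at most 2.88% for the rest. For 50-base stretches it was 90.2% for Gbp6, 21.2% for Gbp8, 12.8% for Gbp4, 12.8% for Gbp7, 9.56% for Gbp9 and at most 4.79% for the rest, and the read length is not given in the sources used here. Overlapping models of Gbp4, Gbp8 and Gbp9 could exchange reads where the counting did not resolve them.

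**Figure D2:**
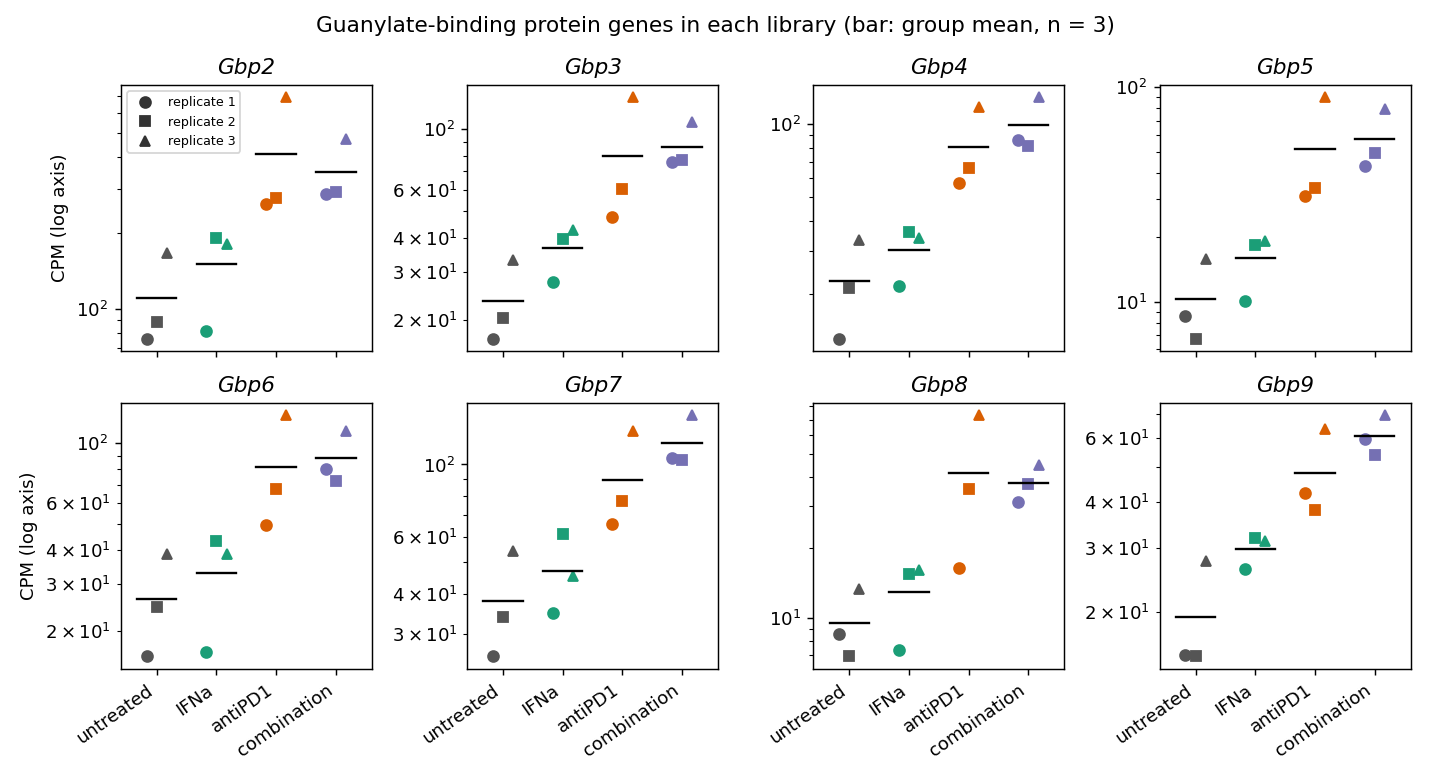
CPM of each of the 8 genes in each of the 12 libraries, on a log axis, with 1 panel per gene and the 3 libraries of a group as points. In every panel the antiPD1 and combination libraries lie above the untreated and IFNa libraries, and antiPD1 replicate 3 is the highest antiPD1 library.

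One library of each group stood at the end of its group for all members. Untreated replicate 3, antiPD1 replicate 3 and combination replicate 3 were the highest of their groups for 8 of 8 genes, and IFNa replicate 1 was the lowest of its group for 8 of 8. The libraries did not overlap for 8 of 8 genes in antiPD1 against untreated (17.5% of all tested genes were higher without overlap), in the combination against untreated (24.7%), in the combination against IFNa (20.3%) and in antiPD1 against IFNa (12.4%). They overlapped for 8 of 8 in IFNa against untreated (4.96% of tested genes were higher without overlap) and in the combination against antiPD1 (7.49%).

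Calls against the untreated libraries depended on single libraries, for the members and over all genes alike. Fitted to the 6 untreated and antiPD1 libraries alone, 0 of 8 members passed by edgeR for antiPD1 (adjusted p = 0.107 to 0.11), as did 0 of all 13867 genes tested there, with 3795 of these at an unadjusted p below 0.05. Without antiPD1 replicate 3, 0 of 8 genes passed for antiPD1 against untreated by edgeR (median log2 fold change 1.24, 8 of 8 higher, adjusted p = 0.0542 to 0.147); the count was also 0 without untreated replicate 1 or untreated replicate 2. Over all genes these fits called 328, 5 and 6 genes in the same order, against 2126 with all libraries. For the combination the count was 0 without untreated replicate 1 or combination replicate 3, 1 without untreated replicate 2, 3 without combination replicate 1 and 2 without combination replicate 2. The counts over all genes were 81, 33, 116, 207 and 143 in the same order, against 1803 with all libraries. Averaged over libraries with and without IFNa, 6 against 6, all 8 genes rose with antiPD1 by edgeR, and 8 of 8 passed with any 1 of the 12 libraries left out; 15.9% of all tested genes rose in that comparison. That average was largest for Gbp5 (2.08 ± 0.34, adjusted p = 0.00399) and smallest for Gbp9 (1.17 ± 0.18, adjusted p = 0.00374).

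After IFNa alone all 8 genes were higher on average, with log2 differences of 0.31 (Gbp7) to 0.64 (Gbp3) and a median of 0.44, against 0.01 over all genes, but 0 of 8 passed and 0% of all tested genes rose. By edgeR 1 of 8 had an unadjusted p below 0.05, namely Gbp9, the gene with the smallest SE (0.62 ± 0.25, adjusted p = 0.881). Over all genes 801 had an unadjusted p below 0.05, and DESeq2 called 30 genes, of which 0 were members. Averaged over antiPD1, IFNa differed by 0.11 (Gbp2) to 0.48 (Gbp9), with 0 of 8 members called (adjusted p = 0.99987 for each) and 0% of tested genes called higher, while 1 of 8 members and 615 of all genes had an unadjusted p below 0.05 and DESeq2 called 0 members.

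Adding IFNa to antiPD1 gave log2 differences of -0.23 ± 0.46 (Gbp2) to 0.38 ± 0.32 (Gbp7), with 6 of 8 genes higher, 0 of 8 called by edgeR (adjusted p = 0.997 to 0.999), 0 of 8 at an unadjusted p below 0.05 and 0 of 8 by DESeq2. Over all tested genes 0% were called higher by edgeR, with 682 at an unadjusted p below 0.05. Adding antiPD1 to IFNa gave 1.03 (Gbp9) to 1.85 (Gbp5). None of the 8 passed by edgeR (adjusted p = 0.06 to 0.153), 8 of 8 had an unadjusted p below 0.05, and 0.342% of all tested genes rose by edgeR, with 3307 genes at an unadjusted p below 0.05. DESeq2 called 7 of 8 members there and 5.82% of all tested genes higher. Between the single treatments, antiPD1 was higher than IFNa by 0.69 (Gbp9) to 1.70 (Gbp5), with 0 of 8 passing by edgeR (adjusted p = 0.0859 to 0.139), 8 of 8 at an unadjusted p below 0.05 and 0.0488% of tested genes called higher by edgeR, with 3234 genes at an unadjusted p below 0.05. DESeq2 called 7 of 8 members there and 7.08% of all tested genes higher. The interaction of the treatments, positive where the combination exceeds the sum of both log2 changes, ran from -0.68 (Gbp2) to 0.06 (Gbp7); 0 of 8 passed (adjusted p = 0.857 to 0.98), 0 of 8 had an unadjusted p below 0.05 and DESeq2 called 0 of 8. Over all tested genes 0% were called higher by edgeR, with 868 at an unadjusted p below 0.05.

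**Figure D3:**
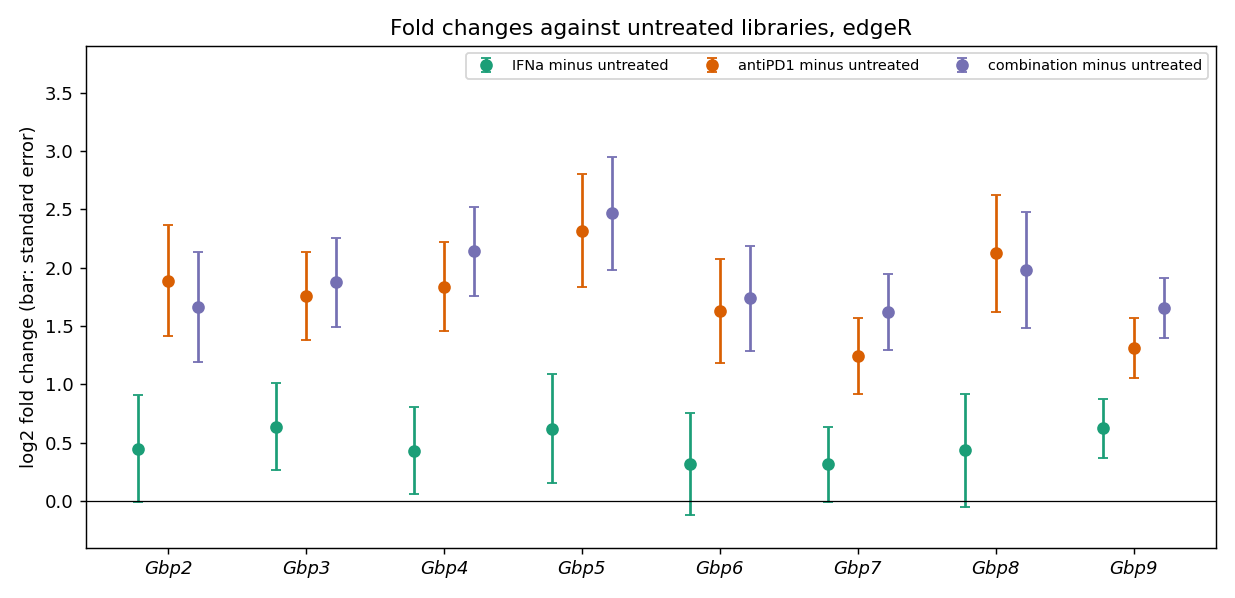
Log2 fold changes of the 8 genes with their SE for IFNa, antiPD1 and the combination, each against the same 3 untreated libraries. The antiPD1 and combination values lie between 1.24 and 2.46, and the IFNa values between 0.31 and 0.64.

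Levels between genes were compared per length with the deposited FPKM (fragments per kilobase and M fragments). Gbp2 was the most abundant member in every library, with 53.2% to 63.9% of the summed FPKM of the 8. In untreated libraries the order of mean FPKM was Gbp2 (32.1 ± 15.2), Gbp3 (5.02 ± 1.94), Gbp7 (4.82 ± 1.94), Gbp6 (3.21 ± 1.35), Gbp4 (2.59 ± 1.24), Gbp5 (2.45 ± 1.29), Gbp9 (2.38 ± 0.943) and Gbp8 (1.27 ± 0.477). Neighbours in the order had overlapping mean ± SD ranges in every group, other than Gbp2 and Gbp3 in each group, Gbp4 and Gbp8 in IFNa, and Gbp9 and Gbp8 in the combination. In the antiPD1 libraries the order was Gbp2 (120.5 ± 66.7), Gbp3 (17.5 ± 9.25), Gbp5 (12.4 ± 7.55), Gbp7 (11.8 ± 3.65), Gbp6 (10.3 ± 5.0), Gbp4 (9.34 ± 3.38), Gbp9 (6.17 ± 1.32) and Gbp8 (5.71 ± 3.81). Gbp5 thus had rank 6 in untreated and rank 3 in antiPD1 libraries, but its neighbours lay within its SD. The share of Gbp5 in the summed FPKM was 4.50% ± 0.884 without treatment, 5.13% ± 0.322 after IFNa, 6.21% ± 0.551 after antiPD1 and 7.33% ± 0.608 after the combination.

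**Figure D4:**
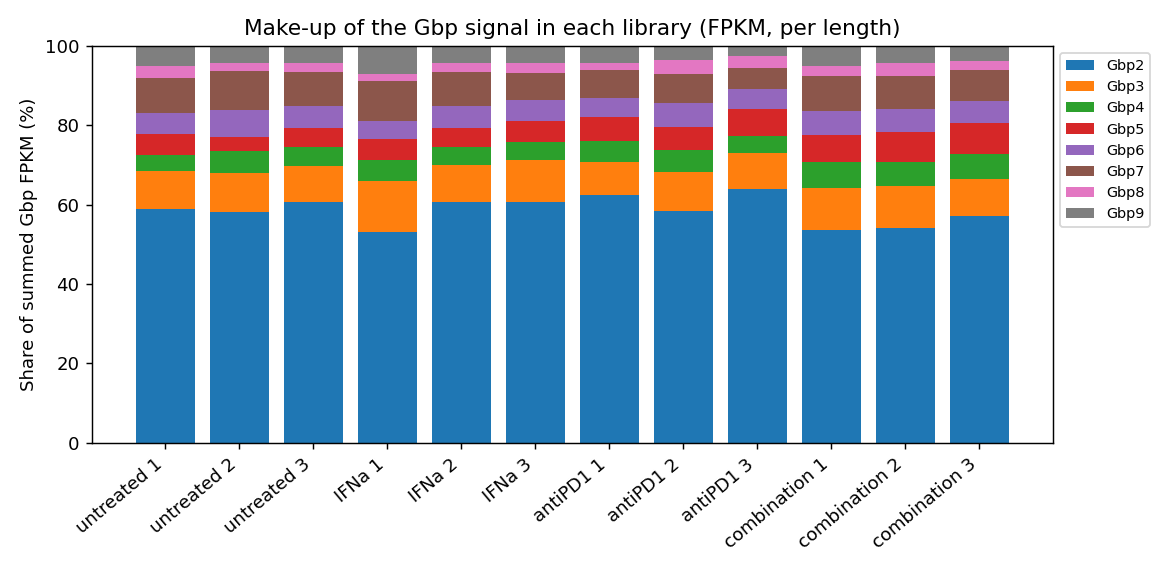
Share of each gene in the summed FPKM of the 8 genes, in percent, for each of the 12 libraries. Gbp2 takes 53.2% to 63.9% of every library, and the mean share of Gbp5 is 4.50% in untreated and 7.33% in combination libraries.

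Ratios within a library describe how members moved relative to each other. Of 28 pairs of members, 3 had log2 ratios of CPM that did not overlap between the 6 libraries with antiPD1 and the 6 without. Each pair was ordered so that its mean ratio was higher with antiPD1. The 3 pairs were picked after the values were seen and are given without a test. Pairs of other genes were not counted, so this count has no background share beside it. Gbp5 over Gbp9 ran from -0.47 to 0.50 with antiPD1 and from -1.38 to -0.70 without. Gbp5 over Gbp3 ran from -0.83 to -0.42 and from -1.59 to -1.0, and Gbp4 over Gbp7 from -0.34 to -0.10 and from -0.98 to -0.42. Across the 12 libraries the log2 CPM of the 28 pairs correlated with r from 0.90 (Gbp8 and Gbp9) to 0.989 (Gbp4 and Gbp7), with a median of 0.966; the libraries share their treatment groups, and the values are a description.

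By the same measure, the 3 genes outside the family most like each member were named. For Gbp2 they were Cxcl9, an interferon gamma-induced chemokine (r = 0.990), Hk3 and Ubd. For Gbp5 they were Serpina3g (0.994), the granzyme B inhibitor Serpinb9 (0.993) and the peptidoglycan sensor Nod1 (0.991). Gbp3 had Serpina3g, Casp1 and Il27, and Gbp4 had Apol6, Serpinb9 and Nod2. Gbp6 was closest to the interferon-induced GTPase Igtp (0.994), and the nucleic acid sensor Zbp1 (0.988) was also among its 3. Gbp7 was closest to Apol6, Dtx3l and Tlr9, Gbp8 to the lymphoid transcription factor Ikzf1 (0.991), Arhgap4 and the integrin Itgal, and Gbp9 to Slfn2, Mbnl3 and Ccnd2. The libraries again share their groups, so these r values over 12 libraries carry no test.

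Leukocyte transcripts moved with these genes. Of 5 general leukocyte markers, 4 rose after antiPD1 and 3 after the combination by edgeR, and none of the 5 was at 0. Not all went the same way: 5 of 5 were higher after antiPD1, but 4 of 5 after the combination. The averaged antiPD1 effect was likewise positive for 4 of 5. Their summed CPM was 274, 273 and 288 in untreated, 168, 343 and 353 in IFNa, 384, 468 and 1103 in antiPD1 and 534, 501 and 530.0 in combination libraries. The summed CPM of the 8 members divided by this sum was 0.658, 0.794 and 1.33 in untreated, 1.34, 1.27 and 1.15 in IFNa, 1.49, 1.40 and 1.29 in antiPD1 and 1.43, 1.52 and 2.18 in combination libraries. The untreated range (0.658 to 1.33) thus overlapped that of antiPD1 but not that of the combination. With the mean log2 CPM of these 5 markers as a covariate, 0 of 8 members passed by edgeR in any of the comparisons that had called them, with a median log2 fold change of 0.34 for antiPD1 (adjusted p = 0.332 to 0.953) and 0.78 for the combination (adjusted p = 0.151 to 0.638). With that covariate 1 gene of all 14330 was called for antiPD1, 3 for the combination and 5 for the averaged antiPD1 effect, against 2126, 1803 and 3845 without it. Correlation with Ptprc, the common leukocyte antigen, over 12 libraries ran from 0.87 (Gbp9) to 0.979 (Gbp8). Of 7 T cell markers, 7 rose after antiPD1 and 3 after the combination by edgeR, and their sum ran from 19.5 to 21.5 CPM without treatment, 9.64 to 33.7 after IFNa, 42.0 to 214 after antiPD1 and 69.9 to 88.0 after the combination. Of 6 macrophage and monocyte markers, 5 rose after antiPD1 and 2 after the combination. They summed to 165 to 351 CPM without treatment, 210.4 to 333 after IFNa, 650.1 to 3089 after antiPD1 and 819.9 to 1132 after the combination. Neutrophil markers rose in 4 of 4 in both comparisons, and B and plasma cell markers in 4 and 2 of 5. For NK cells and for dendritic cells it was 2 and 1 of 4 each. Outside the leukocytes, 2 and 0 of 4 fibroblast markers and 0 of 4 endothelial markers rose. Among all tested genes 9.76% and 7.58% rose.

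**Figure D5:**
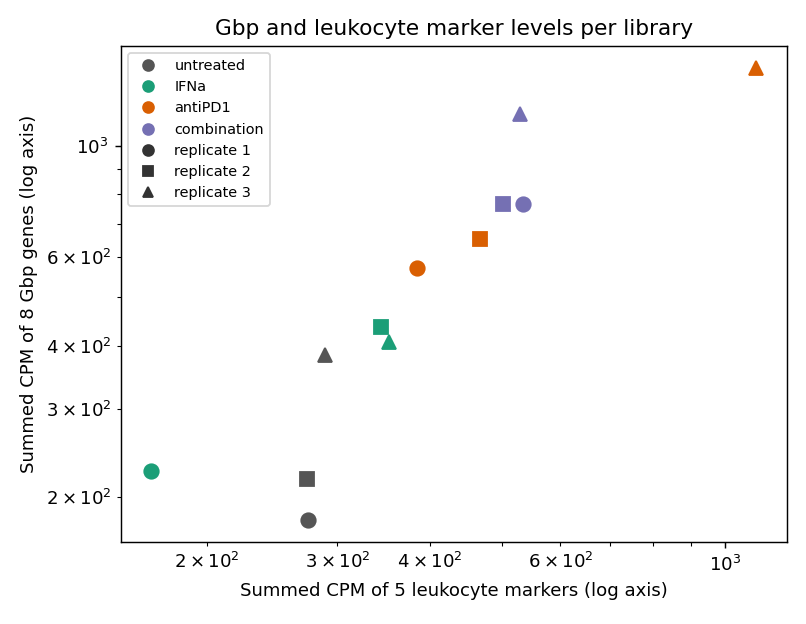
Summed CPM of the 8 genes against the summed CPM of 5 leukocyte markers, on log axes, with 1 point per library and a colour per group. The libraries with antiPD1 lie to the upper right, and antiPD1 replicate 3 is highest on both axes, at 1103 on the leukocyte axis.

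Of 21 listed genes of interferon production, signalling and response, among them Il12b, Il18, Nlrc5 and Socs1, 20 were tested. Of these, 5 rose after antiPD1, 6 after the combination and 0 after IFNa, and 0 fell in any of the 3 comparisons. Among all tested genes 9.76%, 7.58% and 0% rose in the same order, and 5.08% fell after antiPD1 and 5% after the combination. Il12b rose by 4.55 ± 1.22 (SE, log2 scale) after antiPD1 (adjusted p = 0.0341 by edgeR). Its value after the combination was 4.01 ± 1.22 (adjusted p = 0.0532). Ifng, which encodes interferon gamma, had 0.514 ± 0.0582 CPM without treatment, 1.01 ± 0.617 after IFNa, 3.12 ± 1.58 after antiPD1 and 3.07 ± 0.739 after the combination. It rose by 2.59 ± 0.52 (adjusted p = 0.0207) and 2.57 ± 0.52 (adjusted p = 0.0188) on the log2 scale by edgeR. Irf1, with 0.67 and 0.94, did not pass by edgeR (adjusted p = 0.132 and 0.057). The transactivator Nlrc5 rose after antiPD1 and after the combination, and Socs1, Batf2 and Stat2 rose after the combination. The receptor subunits Ifngr1, Ifngr2 and Ifnar1 and the kinases Jak1 and Jak2 passed in neither. The receptor subunit Ifnar2 rose after antiPD1 by 0.63 (adjusted p = 0.0381 by edgeR) and had a value of 0.43 after the combination (adjusted p = 0.121).

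Of 13 genes of lipopolysaccharide sensing and the inflammasome, on which these proteins act, 5 rose after antiPD1, 4 after the combination and 0 after IFNa. None fell. Among all tested genes 9.76%, 7.58% and 0% rose in the same order, and 5.08% fell after antiPD1 and 5% after the combination. Pycard, the adaptor of the inflammasome, rose by 2.17 after antiPD1 and 2.24 after the combination (adjusted p = 0.0191 and 0.0141 by edgeR). Casp4, the mouse caspase-11 gene that binds lipopolysaccharide, rose by 1.68 and 1.84 (adjusted p = 0.0208 and 0.0177). Casp1 and Nlrp3 rose in both, and the pore-forming protein Gsdmd rose by 0.90 after antiPD1 (adjusted p = 0.0388 by edgeR). After the combination Gsdmd had a value of 0.74 (adjusted p = 0.0776), and the combination against antiPD1 was not called (adjusted p = 0.997). Tlr4, Ly96, Aim2 and Nlrc4 passed in neither.

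The related immunity-related GTPases, which also act on pathogen vacuoles, were tested in 9 of 14 listed names: 0 rose after IFNa, 0 after antiPD1 and 4 after the combination by edgeR, with median log2 fold changes of 0.19, 0.57 and 0.81. All 9 were higher in each of these comparisons, in which 0%, 9.76% and 7.58% of all tested genes rose. Igtp rose by 1.29 (adjusted p = 0.0337) and Irgm2 by 1.28 (adjusted p = 0.0215) after the combination. Their values after antiPD1 were 1.06 (adjusted p = 0.0524 by edgeR) and 0.71 (adjusted p = 0.0949). The combination against antiPD1 called 0 of 9. With antiPD1 averaged over IFNa 5 of 9 rose, as did 15.9% of all tested genes. Of the family members outside the list, Gbp2b rose by 2.12 and 2.20 (adjusted p = 0.0494 and 0.0481) and Gbp10 by 2.14 and 2.34 (adjusted p = 0.0367 and 0.0335) after antiPD1 and the combination by edgeR.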

How the data were processed

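RNA from 12 libraries (4 groups of 3, grouped by the treatment label) was analysed from the deposited tables. The authors deposited whole-number counts per gene and, for the same genes, FPKM (fragments per kilobase and M fragments). The build was mm10 and the tools were Cufflinks, HTSeq and HISAT2 2.1.0, per the submitters' processing notes; the annotation, the strand setting or which tool made which table is not given in the sources used here, so reads of a gene and an antisense gene cannot be told apart.

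Counts were filtered with filterByExpr (minimum count 10), scaled by TMM and tested with the quasi-likelihood test of edgeR 4.0.16 in R 4.3.3, with all 12 libraries and 1 mean per group. Benjamini-Hochberg adjustment covered all 14330 tested genes (threshold 0.05). Log2 fold changes carry a standard error, and library totals were 31.3 to 38.5 M. Alternatives were DESeq2 1.42.0, limma 3.58.1 on log2 of the deposited FPKM plus 1 or 0.1, RLE scaling, no count filter, the compared groups alone, a replicate block, a leukocyte covariate and leaving libraries out. The main fit was run on simulated counts with known folds, for the combination against untreated only, and its outcome is not given here. Those counts were drawn independently for each gene and library, so that run cannot show how calls depend on single libraries. The members and gene lists were chosen with earlier results of these data known. By rule the text names all 8 members, other Gbp rows, the 3 genes outside the family most correlated with each member over 12 libraries, interferon input and inflammasome genes by role, and up to 4 of each other list by smallest p in the combination against untreated. Values of 1 gene that the rule names are not reported here. Promoter windows and gene positions come from RefSeq and GENCODE M21.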

Additional observations from a re-analysis of the deposited data

How the results depend on the processing

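All 8 genes were higher for antiPD1 and for the combination against untreated under every alternative tried, but the calls changed with the design and the libraries. With only the groups compared, 0 of 8 passed for antiPD1 against untreated and 6 for the combination against IFNa. DESeq2 called 7 of 8 for the combination and 7 for antiPD1 against IFNa. Limma on log2(FPKM + 1) called 2 for the combination against IFNa, and without its filter 4 for antiPD1 against untreated. With the leukocyte covariate 0 passed for antiPD1 against untreated, 0 for the combination against untreated and 0 for the averaged antiPD1 effect. Leaving out both IFNa replicate 1 and antiPD1 replicate 3, 5 passed for antiPD1 against untreated and 2 for the combination against IFNa. Without the low-count filter 7 of 8 passed for antiPD1 against untreated (Gbp6 lost, adjusted p = 0.0544 by edgeR) and 7 for the combination against untreated (Gbp2 lost, adjusted p = 0.0653). Libraries of like replicate number had r of deviations from -0.306 to 0.484, above 0.1 in 8 of 18 pairs. Libraries of unlike number were not set beside them, so this cannot show whether the numbers pair the libraries. With a replicate block 8 passed for the combination against IFNa and 4 for antiPD1 against IFNa, and the other counts were as without the block. The block raised the calls over all genes from 137 to 542 and from 15 to 148 in these 2 comparisons. Leaving out 1 library gave 0 to 8 members for antiPD1 and for the combination against untreated, 0 to 3 for antiPD1 against IFNa, and 8 in each of 12 fits for the averaged antiPD1 effect. The cause of these changes was not tested.

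Signs turned in 44 values, none of them called, in the combination against antiPD1 (19 of 128), the interaction (19 of 168), the averaged IFNa effect (3 of 168) and antiPD1 against IFNa (3 of 128). For the combination against antiPD1, Gbp2 was 0.052 with the covariate and 0.38 without both libraries. For the combination against antiPD1, Gbp8 was 0.049 with the replicate block, 0.099 with limma on log2(FPKM + 1), 0.15 with limma on log2(FPKM + 0.1), 0.099 with that limma fit unfiltered, 0.23 with the covariate and 0.54 without both libraries. Leaving out 1 library gave -0.51 to 0.38 (Gbp2), -0.15 to 0.67 (Gbp3), -0.16 to 0.81 (Gbp5), -0.15 to 0.58 (Gbp6), -0.52 to 0.54 (Gbp8) for the combination against antiPD1. For antiPD1 against IFNa, Gbp2 was -0.00256 with the covariate. For antiPD1 against IFNa, Gbp3 was -0.081 with the covariate. For antiPD1 against IFNa, Gbp6 was -0.024 with the covariate. For the interaction, Gbp4 was 0.036 with limma on log2(FPKM + 1), 0.036 with that limma fit unfiltered, 0.15 with the covariate and 0.021 without both libraries. For the interaction, Gbp6 was 0.27 with the covariate. For the interaction, Gbp8 was 0.034 with the covariate. Leaving out 1 library gave -0.85 to 0.0087 (Gbp3), -0.53 to 0.22 (Gbp4), -0.91 to 0.16 (Gbp5), -0.59 to 0.24 (Gbp6), -0.28 to 0.36 (Gbp7), -0.96 to 0.076 (Gbp8) for the interaction. Leaving out 1 library gave -0.031 to 0.43 (Gbp2), -0.045 to 0.50 (Gbp8) for the averaged IFNa effect. The cause was not tested.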

Other observations

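Of 7 genes listed for prenylation, processing of the prenylated end and membrane release, 2 fell after antiPD1 by edgeR and 0 after the combination. They were Pggt1b, a subunit of the geranylgeranyl transferase (log2 fold change -0.34, adjusted p = 0.0313), and the CaaX protease Zmpste24 (-0.30, adjusted p = 0.0387). Over all tested genes 5.08% and 5% fell in these comparisons. Of 15 genes of ubiquitin and autophagy at the vacuole, 1 rose after antiPD1 and 2 after the combination, with list medians of 0.13 and 0.07. Over all tested genes 9.76% and 7.58% rose, so these counts lie near the background. The ubiquitin-like Ubd rose in both (adjusted p = 0.0255 and 0.0302 by edgeR), and the E3 ligase Rnf213 rose after the combination (0.89, adjusted p = 0.0242).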
